A study of Mus musculus with 5 samples.

Results

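The TRAF adaptors, the cIAP ubiquitin ligases, the kinase NIK and the IKK kinases pass signals from receptors of the tumor necrosis factor receptor family to NF-κB. Their genes were followed here in bone marrow plasma cells (PCs), taken directly or after co-culture. The 10 listed genes were Traf1, Traf2, Traf3, Traf5, Traf6, Birc2, Birc3, Map3k14, Chuk and Ikbkb, and members were all probe sets whose platform annotation names only one of them. This gave 20 probe sets of 8 genes, among 34945 single-gene probe sets of 18193 genes. No probe set was listed for Traf3 or Chuk alone in the annotation used, and both are not analysed here. All 20 probe sets had an intensity of at least 50 in all 5 arrays, so none was lost to the filter on low values. Traf5 1447682_x_at, Traf6 1443288_at and Traf6 1446940_at were low, under the lowest array median of 87.05 in every array.

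The cultured group held 3 arrays of PCs kept for 3 days with ST2 cells and the cytokine APRIL at physiological oxygen, and sorted by flow cytometry afterwards. The ex vivo group held 2 arrays of PCs processed right after magnetic isolation, which removed B220 and CD49b expressing cells and enriched CD138high cells. All PCs came from the bone marrow of C57BL/6J mice immunized with NP-CGG (NP-CCG in the labels) in incomplete adjuvant and challenged 2 times in cycles of 21 days, and were isolated more than 30 days after the last injection. The sources used here give neither the age of the mice nor how many stand behind each array. ST2 is a fibroblast-like stromal line of BALB/c bone marrow. Experiment 1 gave 1 cultured and 1 ex vivo array, and experiment 2 gave 2 cultured arrays and 1 ex vivo array. Nothing says that the 2 cultured arrays of experiment 2 came from separate cultures, so p-values measure the spread between arrays, part of which may be technical. Culture, its 3 days and the flow sort all separate the groups in the same way and cannot be told apart.

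APRIL binds the PC receptors BCMA and TACI. Receptors of this family have no enzyme activity of their own, and they recruit TRAF proteins to their cytoplasmic tails. In resting cells TRAF3, TRAF2 and the cIAPs form a complex that marks NIK for destruction. When a receptor draws this complex away, NIK accumulates and activates IKKα, which starts the processing of the NF-κB precursor encoded by Nfkb2, the non-canonical branch. In the canonical branch, TRAF2, TRAF5 or TRAF6 activate a complex of IKKα, IKKβ and NEMO that marks the IκB inhibitors for destruction. The arrays measure transcripts, whereas NIK and the TRAF complexes are controlled largely at the protein level.

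Traf1 and Birc3 are known NF-κB target genes, and 1 of them, Traf1, held the member probe sets that passed a test for culture. Their promoter windows are shown for this reason. Each runs from 250 bases before to 50 bases after the annotated start, 5′ to 3′ on the strand of the gene, as given by RefSeq for GRCm38.p6. Capitals mark a match, on either strand, to GGG followed by 5 bases of any kind and CC, the outer bases shared by many κB sites.
Traf1 (chr2:34961723-34962022, minus strand): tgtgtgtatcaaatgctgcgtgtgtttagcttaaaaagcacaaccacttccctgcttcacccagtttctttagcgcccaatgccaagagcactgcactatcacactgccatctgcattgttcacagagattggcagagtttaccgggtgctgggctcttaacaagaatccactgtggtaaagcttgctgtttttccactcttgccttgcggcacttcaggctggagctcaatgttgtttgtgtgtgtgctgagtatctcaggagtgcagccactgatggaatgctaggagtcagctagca
Birc3 (chr9:7873121-7873420, minus strand): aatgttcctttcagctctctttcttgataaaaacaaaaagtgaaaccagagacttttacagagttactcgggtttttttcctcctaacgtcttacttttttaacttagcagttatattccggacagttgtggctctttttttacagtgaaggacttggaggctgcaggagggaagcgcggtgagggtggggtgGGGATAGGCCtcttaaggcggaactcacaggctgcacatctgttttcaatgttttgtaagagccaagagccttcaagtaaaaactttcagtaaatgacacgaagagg

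The Traf1 window held no match to these letters, and the Birc3 window held 1, which begins 57 bases before the start. Windows of 9 of the 10 listed genes were available, with 2 for Birc2, neither of which held a match. Of the 9 genes, 7 had at least 1 match. Of 32851 windows of the same length, counted by window and not by gene, 50.8% held one. G and C made up from 43% to 84% of the bases in the member windows, and the share over all windows was not adjusted for this. The full NF-κB consensus was found in the window of 1 of the 9 genes, Traf3, and in 4.51% of all windows. A match is a stretch of letters and not a shown binding site, and these windows leave out any site farther away.

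Of the 8 genes, Traf1 was higher in cultured PCs, and it passed only when the experiment was taken into account. Birc3 and Ikbkb had higher values in culture on their brightest probe sets that did not pass, and on 14 of the 20 probe sets the change with the block was smaller than 0.25 on the log2 scale. Following the methods, which name limma and no covariate, culture alone was tested first over 30477 probe sets. None of the 20 member probe sets passed at an adjusted p under 0.05 (limma, 4 at an unadjusted p under 0.05). Of all tested probe sets 0.0459% passed, 0.0164% as higher and 0.0295% as lower, and 6.59% had an unadjusted p under 0.05. With the experiment as a block, both probe sets of Traf1 were called higher and none was lower. This was 2 of 20 probe sets, where 1.24% of all were called higher and 0.561% lower, or 1.80% in either direction. Both read the same gene. On the brightest probe set of each gene, 1 of 8 members was called higher, beside 1.13% of all genes, and none lower, beside 0.611%. An unadjusted p under 0.05 was reached by 5 of the 20, of Traf1, Birc3 and Ikbkb, and by 18.5% of all. The median log2 change of the 20 with the block was 0.16, beside -0.02 over all tested probe sets, and the median size regardless of sign was 0.16 beside 0.15.

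Counted without a model, 10 of the 20 probe sets were higher in all 3 comparisons of a cultured array with the ex vivo array of its own experiment, against 23.1% of all tested probe sets, and 2 were lower in all 3, against 24.9%. On the brightest probe set of each gene, 5 of 8 members were higher in all 3, beside 18.9% of all genes, and none lower, beside 29.7%. Both comparisons of experiment 2 share 1 ex vivo array. Every cultured array lay above every ex vivo array for 4 of the 20, beside 9.42% of all, and below for 1, beside 10.6%. The 4 were both probe sets of Traf1 and the brightest ones of Birc3 and Ikbkb, and the 1 that lay below, Map3k14 1422999_at, was 7.21 in its highest cultured array and 7.21 in its lowest ex vivo array. On the brightest probe set of each gene, 3 of 8 members lay above in this way, beside 7.79% of all genes, and none below, beside 13.0%. With so few arrays, the smallest two-sided p of an exact permutation test on a single probe set is 0.1 when the experiment is ignored. Shuffling within experiments allows fewer arrangements, so its smallest p is larger.

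**Figure D1:**
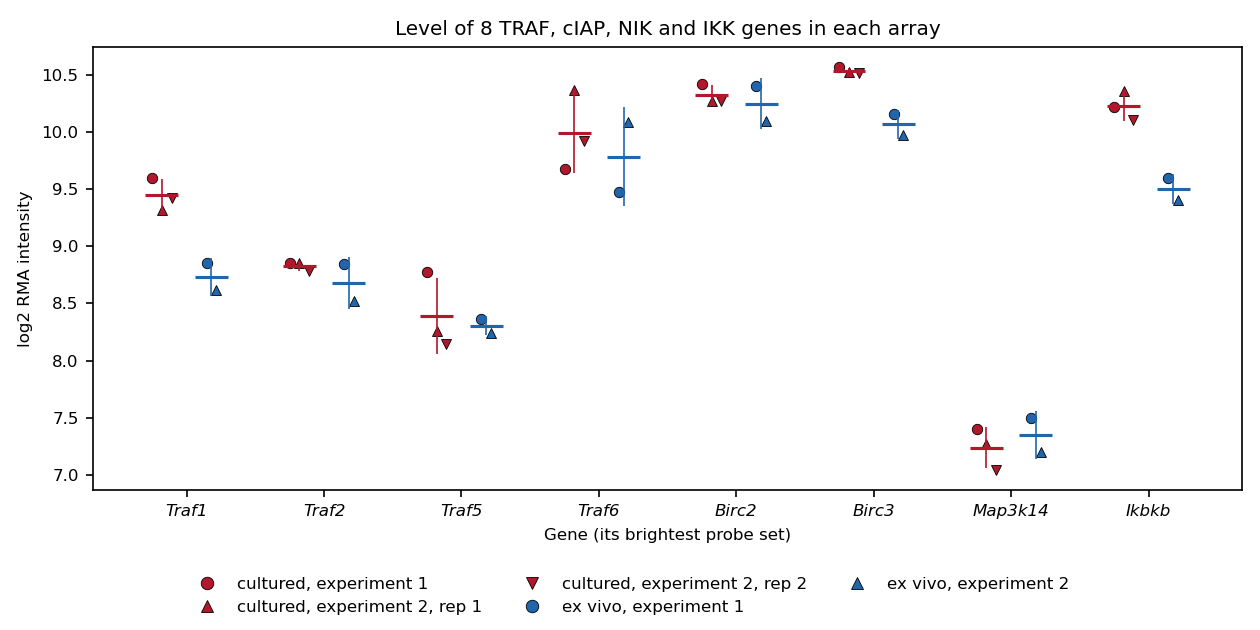
Log2 RMA intensity of the brightest probe set of 8 genes in each cultured array (red, n = 3, left) and each ex vivo array (blue, n = 2, right). Each group mean is drawn as a horizontal bar, with its SD as a vertical line. Cultured and ex vivo arrays do not overlap for Traf1, Birc3 and Ikbkb, and levels are not comparable between probe sets.

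Traf1 encodes an adaptor without the RING domain of the other TRAFs, which pairs with TRAF2 and binds cIAPs. On its brighter probe set, 1423602_at, the log2 intensity was 9.60 in the cultured array of experiment 1, and 9.31 and 9.42 in those of experiment 2, against 8.85 ex vivo in experiment 1 and 8.61 ex vivo in experiment 2. Each cultured array was the higher one of its experiment, by 0.75 in experiment 1 and by 0.70 and 0.81 in experiment 2. With the experiment as a block Traf1 rose by 0.75 on the log2 scale, 1.68-fold (standard error 0.11, 95% interval 0.49 to 1.02, adjusted p = 0.0398, limma). Without the block the difference was 0.71 (standard error 0.16), and it did not pass (adjusted p = 0.411, limma).

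On the other probe set of Traf1, 1445452_at, the values were 8.87, 8.63 and 8.69 in culture, in the same order of arrays, against 8.07 and 7.40 ex vivo. The lowest cultured value exceeded the highest ex vivo value here too, and the ex vivo arrays lay farther apart than the cultured ones (SD 0.47, n = 2, and 0.12, n = 3). The change was 0.80 in experiment 1, and 1.23 and 1.29 in experiment 2. With the block it was 1.06, or 2.09-fold (standard error 0.14, 95% interval 0.71 to 1.41, adjusted p = 0.034, limma), and without the block it was 0.99 (standard error 0.23, adjusted p = 0.45).

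The direction of Traf1 was the same under all alternatives run, but its call was not. With the block, neither probe set of Traf1 passed when both cultured arrays of experiment 2 were averaged into 1 (adjusted p = 0.103 for 1423602_at and 0.0918 for 1445452_at, limma), nor did they without the first cultured array of experiment 2 (0.0748 and 0.0726) or without the second (0.171 and 0.122). Without any of the other 3 arrays culture is estimated from 1 experiment alone, and neither passed there. Over the alternatives with the block the adjusted p ran from 0.0292 to 0.410 for 1423602_at and from 0.0196 to 0.410 for 1445452_at.

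Markers of stromal cells rose in the same arrays. Of 15 tested stromal markers 9 were higher and 1 was lower with the block, where 1.13% and 0.611% of 13578 genes were called in these directions on the brightest probe set of each. In the cultured arrays 1 of these 15 was under an intensity of 50 throughout, and ex vivo 4 were. Their summed intensity was 5565 in the cultured array of experiment 1, and 15418 and 15733 in those of experiment 2, against 1076 and 964 ex vivo. On both probe sets the level of Traf1 was highest in the cultured array of experiment 1, where the stromal sum was the lowest of the cultured arrays, and ex vivo it was also higher in experiment 1. The change within experiments on 1445452_at was smallest in that array (0.80, against 1.23 and 1.29 where the stromal sum was higher), and on 1423602_at it was 0.75, against 0.70 and 0.81. Macrophage markers moved the other way, with 5 of 9 lower and 1 higher, and their summed intensity ran from 1713 to 2233 in culture and from 2110 to 2516 ex vivo. Vcam1 stands in both marker lists and so enters both sums. The part of either cell type in the level of Traf1 was not tested. In bulk RNA, fewer cells of a type and less RNA per cell cannot be told apart.

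By the likeness of centred log2 values over the 5 arrays, the genes closest to Traf1 1445452_at were the integrin gene Itgb3 on 1455257_at (root mean square distance 0.08), Gclc on 1424296_at, which encodes the catalytic subunit of glutamate cysteine ligase (0.08), and the vimentin gene Vim on 1456292_a_at (0.11). With the block their log2 changes were 0.94, 0.99 and 1.21. These distances describe 5 arrays of 2 experiments.

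No probe set of Traf2, Traf5 or Traf6 passed. Traf2 encodes the adaptor that brings cIAPs to receptors. Its probe set 1451233_at was at 8.85, 8.85 and 8.78 in culture, with experiment 1 first, against 8.84 and 8.52 ex vivo. The ex vivo array of experiment 1 lay among the cultured arrays, and that of experiment 2 below all of them. The change with the block was 0.17 (standard error 0.12, 95% interval -0.12 to 0.47, adjusted p = 0.499, limma).

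Traf5 encodes a close relative of TRAF2 and TRAF3. Its brighter probe set 1448861_at was at 8.77, 8.25 and 8.15 in culture, against 8.36 and 8.24 ex vivo. Only the cultured array of experiment 1 stood above both ex vivo arrays, by 0.41 over its own ex vivo array, while those of experiment 2 differed from theirs by 0.01 and -0.10. The change was 0.15 (standard error 0.14, 95% interval -0.20 to 0.51) on this probe set and -0.08 (standard error 0.12) on 1447682_x_at, and neither passed.

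Traf6 encodes the ligase that serves CD40 and the IL-1 and Toll-like receptors. On its 5 probe sets the log2 change with the block ran from -0.11 on 1435350_at to 0.20 on 1421376_at, and none passed. On the brightest, 1421377_at, the level was 9.68, 10.36 and 9.92 in culture, against 9.48 and 10.09 ex vivo, and the groups overlapped. The 95% interval of this change was -0.29 to 0.52, and on 1421376_at, the widest, it was -0.35 to 0.76.

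**Figure D2:**
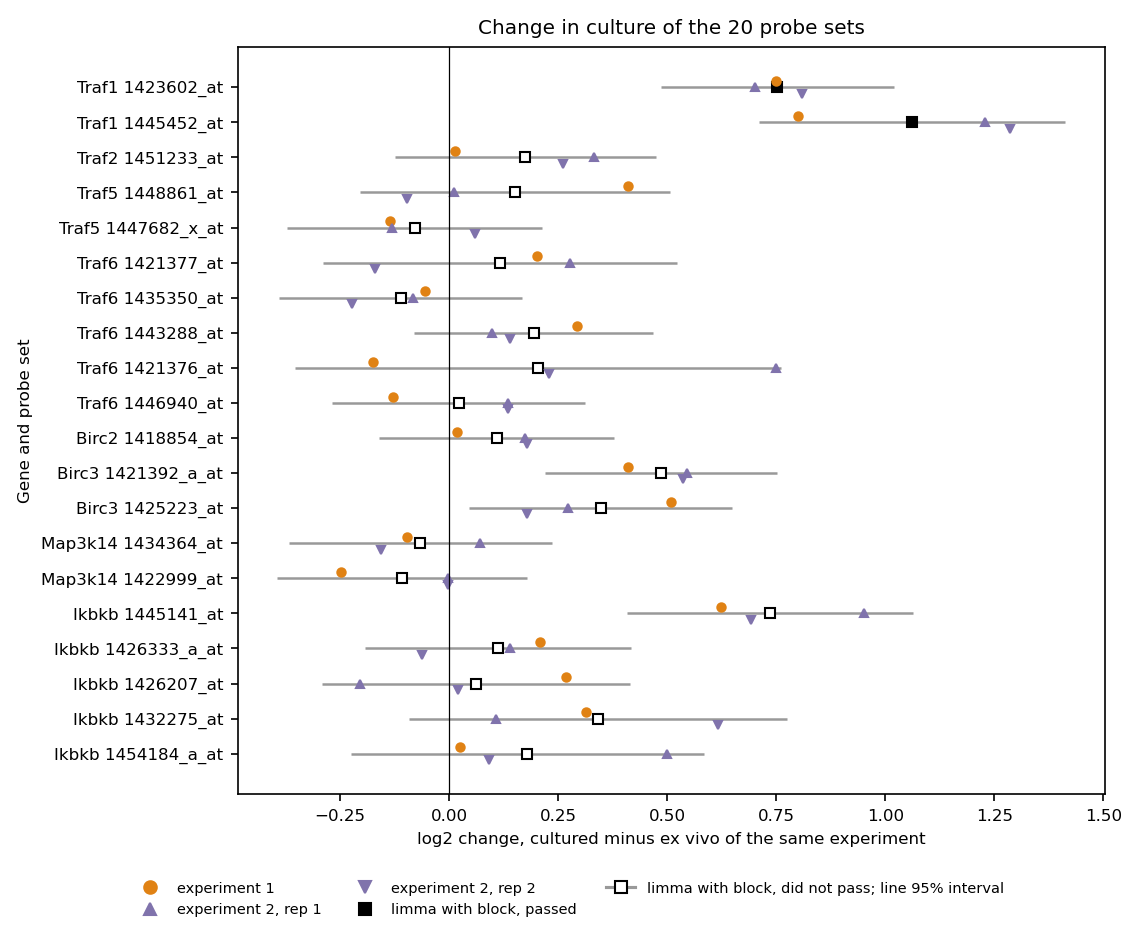
Log2 change of the 20 probe sets from limma with the experiment as a block (squares, filled where the adjusted p is under 0.05, with 95% intervals as lines), with the cultured minus ex vivo difference of experiment 1 (circles) and of both cultured arrays of experiment 2 (triangles). Both Traf1 probe sets are filled, at 0.75 and 1.06, and most others lie near 0.

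Birc2 and Birc3 encode the ligases cIAP1 and cIAP2, which act with TRAF2. The brightest probe set of Birc3, 1421392_a_at, was at 10.56, 10.52 and 10.51 in culture, against 10.15 and 9.97 ex vivo. All cultured arrays lay above both ex vivo arrays, and the differences within experiments were 0.41 in the first and 0.55 and 0.54 in the second. The change with the block was 0.49, or 1.40-fold (standard error 0.11, 95% interval 0.22 to 0.75), and did not pass (adjusted p = 0.0988, limma), nor did it under any alternative run.

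On the other probe set of Birc3, 1425223_at, the groups overlapped, at 7.62, 6.96 and 6.87 in culture against 7.11 and 6.69 ex vivo. It was higher in culture within each experiment and lower in experiment 2 than in experiment 1. The change with the block was 0.35 (standard error 0.12, adjusted p = 0.222). Birc2 on 1418854_at was at 10.42, 10.26 and 10.27 in culture, against 10.40 and 10.09 ex vivo, with overlapping groups and a change of 0.11 (standard error 0.11, 95% interval -0.16 to 0.38). In Birc2 and Birc3, which arose by duplication and lie side by side on chromosome 9, whether a probe set reads only 1 of both transcripts was not tested.

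Map3k14 encodes NIK. On 1434364_at its level was 7.40, 7.27 and 7.05 in culture, against 7.50 and 7.20 ex vivo. On 1422999_at it was 7.14, 7.21 and 7.21 in culture, against 7.39 and 7.21 ex vivo. The arrays of experiment 2 were nearly equal on the second probe set, and only experiment 1 differed, by -0.25. The changes with the block were -0.07 (95% interval -0.37 to 0.24) and -0.11 (95% interval -0.39 to 0.18), and neither passed (adjusted p = 0.818 and 0.67, limma).

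Ikbkb encodes IKKβ, the kinase of the canonical branch, and its 5 probe sets gave unequal changes. The brightest, 1445141_at, was at 10.22, 10.36 and 10.10 in culture, against 9.59 and 9.41 ex vivo. The groups did not overlap, and each cultured array lay above the ex vivo array of its experiment by 0.62 to 0.95. The change with the block was 0.74, or 1.67-fold (standard error 0.13, 95% interval 0.41 to 1.06), and it missed the threshold (adjusted p = 0.0651, limma). It passed when the minimum intensity in 2 arrays was set to 100 (adjusted p = 0.0499), in a range of 0.0499 to 0.420 over the alternatives with the block.

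The other 4 probe sets of Ikbkb gave changes with the block from 0.06 to 0.34, and none passed. On 1426207_at the values were 10.26, 9.36 and 9.59 in culture, against 9.99 and 9.56 ex vivo, with overlapping groups and a change of 0.06 (95% interval -0.29 to 0.41). The interval of 1445141_at, 0.41 to 1.06, lies almost wholly above that of 1426207_at and that of 1426333_a_at (-0.19 to 0.42). It overlaps more with those of 1432275_at (-0.09 to 0.78) and 1454184_a_at (-0.23 to 0.58). Which transcript forms these probe sets read is not given in the sources used here.

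On several member probe sets the experiment made a larger difference than culture, and its calls were about as frequent as over all tested probe sets. With culture in the model, experiment 2 exceeded experiment 1 on 3 of the 20 probe sets and fell below it on 2 (limma, adjusted p under 0.05), where 13.0% and 13.8% of all tested probe sets, 26.8% together, were called. On the brightest probe set of each gene, none of the 8 members was called for the experiment, beside 25.1% of all genes. An unadjusted p under 0.05 was reached by 10 of the 20 probe sets and by 41.0% of all. No probe set at all was called for the experiment once the cultured array of experiment 1 or either ex vivo array was left out (limma, from 7384 to 9612 at an unadjusted p under 0.05), against 8170 with all arrays. The median size of this difference was 0.28 over the 20 probe sets and 0.27 over all. On Ikbkb 1454184_a_at the level was 8.20, 10.22 and 9.81 in culture, against 8.17 and 9.72 ex vivo. Both arrays of experiment 1 were low and the 3 of experiment 2 high, a difference of 1.70 (standard error 0.16, adjusted p = 0.0038), whereas the change with culture was 0.18 (standard error 0.16).

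On Traf6 1421376_at the level was 8.99, 10.85 and 10.33 in culture, against 9.16 and 10.10 ex vivo. The arrays again parted by experiment, by 1.32 (standard error 0.22, adjusted p = 0.0128, limma). Ikbkb 1426333_a_at was higher in experiment 2 by 0.51 (adjusted p = 0.0331), and Ikbkb 1426207_at and Birc3 1425223_at were lower by -0.63 (adjusted p = 0.0269) and -0.58 (adjusted p = 0.0224). Neither probe set of Traf1 was called for the experiment, with differences of -0.23 (adjusted p = 0.163) and -0.40 (adjusted p = 0.0882). Probe sets of Ikbkb differed between the experiments in opposite directions. In their change with culture, 2 of the 20 probe sets, both of Traf6, moved opposite ways in the 2 experiments, beside 24.2% of all.

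**Figure D3:**
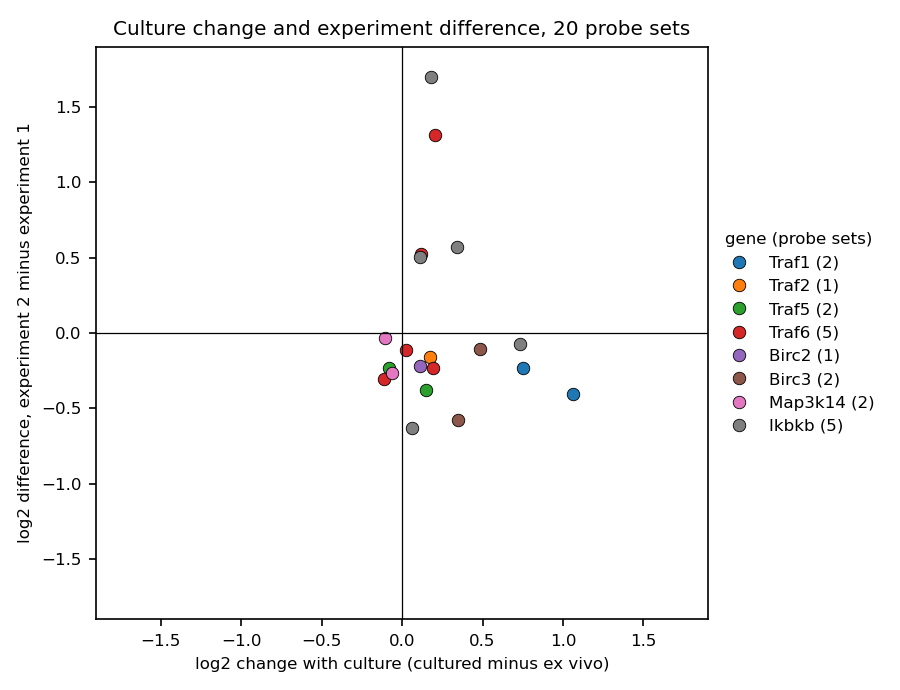
Log2 difference between experiment 2 and experiment 1 (vertical axis) against the log2 change with culture (horizontal axis) for the 20 probe sets, both from limma with culture and experiment in the model. Traf1 lies farthest right, at 0.75 and 1.06, and 1 probe set each of Ikbkb and Traf6 lies highest, at 1.70 and 1.32, with culture changes of 0.18 and 0.20.

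The wider pathway was described by 5 lists of 85 genes, of which 77 were tested on the brightest probe set of each. With or without the block none of the 77 passed in either direction (limma), where 1.13% of genes were called higher and 0.611% lower with the block. An unadjusted p under 0.05 was reached by 17 of the 77 with the block and by 4 without it, beside 17.3% and 6.69% of all genes. Of the 77, 23 were higher and 18 were lower in all 3 comparisons within an experiment, where 18.9% and 29.7% of 13578 genes were. Of the 77, 20 differed between the experiments (limma, adjusted p under 0.05), beside 25.1% of all genes.

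Among 16 receptors that use TRAFs, the median change with the block was -0.03. Tnfrsf13c encodes the BAFF receptor, and its probe set 1419307_at was at 11.06, 10.62 and 10.58 in culture, against 11.63 and 11.36 ex vivo. The cultured arrays lay below the ex vivo arrays, and the change of -0.68 (standard error 0.11) did not pass (adjusted p = 0.053, limma with the block). Tnfrsf1b encodes a TNF receptor that binds TRAF2, and on 1418099_at it was at 9.23, 10.12 and 10.05 in culture, against 8.66 and 9.29 ex vivo. Each cultured array exceeded the ex vivo array of its experiment, and the blocked estimate was 0.70 (standard error 0.12, adjusted p = 0.0541, limma). In the blocked fit, 2 receptors passed when the minimum intensity was 100, where 685 of all 22748 probe sets passed. After a repeated quantile normalization, with arrays centred on the median, and with limma's trend and robust options, 1 receptor passed. Of all 30477 probe sets 664, 636 and 666 passed there, in the same order. The receptor counts carry neither the gene nor its direction.

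Of 22 tested kinases and adaptors, with a median change of -0.02, the largest differences were those of Traf4 on 1460642_at (0.49, standard error 0.20) and of Tank on 1421640_a_at (0.45, standard error 0.12), which encodes a TRAF-binding adaptor. Tank was at 9.35, 9.23 and 9.44 in culture, against 8.98 and 8.83 ex vivo, with no overlap, and did not pass (adjusted p = 0.146, limma with the block). The 13 tested ubiquitin enzymes had a median of 0.01. Btrc on 1425680_a_at, which encodes a subunit of the ligase for IκB proteins, had the largest difference among them (-0.33, standard error 0.15).

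Of 17 tested negative regulators, with a median of -0.02, Usp18 on 1418191_at (-0.55, standard error 0.18) and Tnfaip3 on 1433699_at (0.49, standard error 0.23) differed most. Tnfaip3, which encodes the ubiquitin-editing enzyme A20, was at 10.62, 10.49 and 10.26 in culture, against 9.59 and 10.29 ex vivo. The change was 1.03 in experiment 1, and 0.21 and -0.03 in experiment 2, and this difference between the experiments did not pass (adjusted p = 0.654, limma's interaction).

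The 9 tested NF-κB subunits and inhibitors had a median change of 0.32 with the block and 0.17 without it, and 6 of the 9 were higher in all 3 comparisons within an experiment, beside 18.9% of all genes. With the block, 1 of the 9 passed when both cultured arrays of experiment 2 were averaged, where 187 of all 30477 probe sets passed. The same held without the first of these arrays (271 of all), without the second (153) and with an offset of 50 (234). Without the block, 1 of the 9 passed when the cultured array of experiment 1 was left out, where 257 of all did. The counts among the 9 carry neither the gene nor its direction. Rel on 1420710_at had the largest difference (0.59, standard error 0.19), followed by Nfkbiz on 1448728_a_at (-0.48, standard error 0.26), and neither passed. The change of Rel was 1.04 in experiment 1 and 0.25 in both cultured arrays of experiment 2. This difference between the experiments did not pass (adjusted p = 0.654, limma's interaction). Another probe set of Nfkbiz, 1457404_at, did pass with the block, as lower (-2.11, standard error 0.11, adjusted p = 0.0030, limma). Nfkb2, the precursor gene of the branch that NIK serves, was at 10.61, 10.35 and 10.33 in culture on 1425902_a_at, against 10.30 and 9.91 ex vivo. All its cultured arrays were above both ex vivo arrays, and the change of 0.38 (standard error 0.11) did not pass (adjusted p = 0.15). Nfkb2, and Tnfrsf17 described next to the cell type markers, lie outside the rule for named genes and were chosen after their values were seen.

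**Figure D4:**
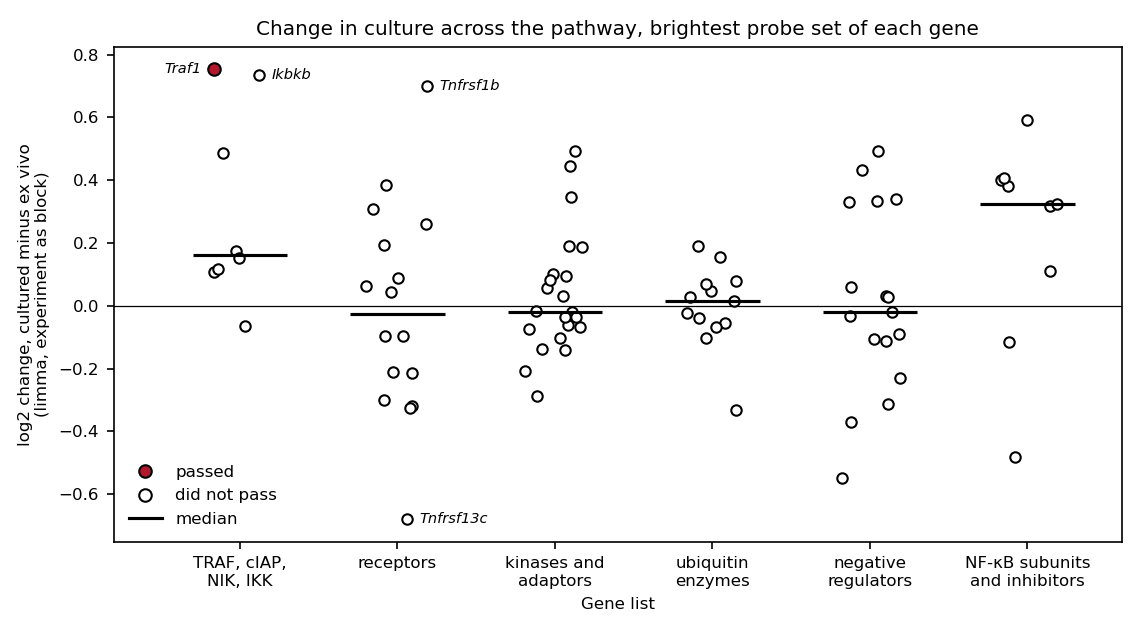
Log2 change with culture (limma, experiment as a block) of the brightest probe set of each gene, in the 8 member genes and 5 wider lists. Filled points passed at an adjusted p under 0.05, bars are medians, and Traf1, at 0.75, is the single filled point.

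The plasma cell label was checked against its markers. All 12 plasma cell markers were tested and none passed with or without the block (limma). An unadjusted p under 0.05 was reached by 2 with the block and 1 without it, beside 17.3% and 6.69% of all genes. In all 3 comparisons within an experiment 8 of the 12 were lower, beside 29.7% of all genes, and 1 was higher. Their summed intensity ran from 66381 to 67062 in culture and from 71950 to 73032 ex vivo. The receptor gene Tnfrsf17, which encodes BCMA, was at 10.75, 10.62 and 10.65 in culture on 1420782_at, against 11.33 and 10.77 ex vivo. The cultured values of Tnfrsf17 lay below both ex vivo values, with a change of -0.32 with the block (standard error 0.14) that did not pass (adjusted p = 0.294, limma). Neutrophil, erythroid and T or NK cell markers gave summed intensities of at most 1347 in culture and 1481 ex vivo. The sum of B cell markers ran from 12271 to 13615 in culture and from 12171 to 13153 ex vivo. With the block 2 of 10 B cell markers were called lower, beside 0.611% of all genes, and the median change was -0.28. In all 3 comparisons within an experiment 6 of these 10 were lower and 1 was higher, beside 29.7% and 18.9% of all genes.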

How the data were processed

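The deposited values are RMA intensities on a linear scale, which the authors made with the affy R package from raw array signals. GCOS is also among the tools in the submitters' processing notes. Tool versions and any genome build: not given in the sources used here. Array medians ran from 87.05 to 94.14. Values were taken as log2. Of 45101 probe sets, 64 controls were left out, 932 name several genes and 9160 none listed here. Symbols were checked through the gene identifiers of RefSeq GRCm38.p6, and none changed. Tests covered 30477 probe sets, those that reached an intensity of 50 in 2 of 5 arrays. They used limma 3.58.1 (R 4.3.3), with Benjamini-Hochberg adjustment over all 30477, after a check on simulated data. Titles share an experiment number between groups, so the experiment was also fitted as a block. The deviations of same-numbered arrays from their group means correlated at 0.75 in experiment 1 and at 0.56 and 0.72 in experiment 2. The ex vivo deviations mirror each other and the cultured ones cancel out, so these values are not independent. For a gene with several probe sets, the brightest one stood for it in counts. Named genes were all member probe sets and, in each wider list, called genes or otherwise the 2 with the largest change with the block. The members and lists were chosen with earlier results of these data known. The number of arrays limits the precision. Figures were drawn with matplotlib 3.10.9. Alternatives were the block, averaging, the filter, normalization, an offset, the moderation and leaving out each array.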

Additional observations from a re-analysis of the deposited data

Results flagged for a closer look

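A difference between the experiments in the change with culture passed limma's interaction test for none of the 20 probe sets, and none had an unadjusted p under 0.05 in that test. On 2 probe sets of Traf6 the experiments moved opposite ways, as 24.2% of all tested probe sets did. On 1421376_at the change was -0.17 in experiment 1, and 0.75 and 0.23 in experiment 2, a difference of 0.66 between the experiments that did not pass (adjusted p = 0.697, limma's interaction with 1 residual degree of freedom). On 1446940_at it was -0.13 in experiment 1 and 0.13 in both cultured arrays of experiment 2, a difference of 0.26 (adjusted p = 0.658, limma). All cultured arrays were at 6.16 on this probe set, against 6.29 ex vivo in experiment 1 and 6.03 ex vivo in experiment 2. The opposite signs there come from the ex vivo arrays alone, on a probe set whose intensities were all under the lowest array median of 87.05. Groups of 2 and 3 arrays are too small to test for single outlying samples.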

How the results depend on the processing

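Directions below are cultured minus ex vivo on the log2 scale. Without the block 14 of all probe sets passed, and the count was 0 with the cultured arrays of experiment 2 averaged, 5 with no filter, 31 at a minimum intensity of 100, 3 with an offset of 50, and from 0 to 257 with 1 array left out, 257 being without the cultured array of experiment 1. With the experiment as a replicate block it was 550, or 187 with the averaging. The 550 became 187 with the averaging, 206 with no filter, 234 with the offset, 271 without the first cultured array of experiment 2 and 153 without the second. Without any of the other 3 arrays, an alternative chosen after seeing the data, the blocked fit takes culture from 1 experiment with 1 residual degree of freedom, and it was 0 (limma, from 3703 to 4386 at an unadjusted p under 0.05). The 8170 called for the experiment ranged from 0 to 6916 with 1 array left out, being 4090 when the second cultured array of experiment 2 was omitted, and 0 when the cultured array of experiment 1 or either ex vivo array was. Of the member genes, 0 passed without the block and 1, Traf1, with it. With the block the count was 0 after averaging, with no filter, and without any 1 of the 5 arrays, and 2 at a minimum intensity of 100. With no filter the adjusted p of Traf1 was 0.0632 on 1423602_at and 0.0708 on 1445452_at (limma), and with the offset it was 0.0505 on 1445452_at. Both probe sets of Traf1 kept their direction under all alternatives run.

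Several changes that did not pass changed sign, and 2 of these were not near 0 with all arrays and no block (Ikbkb 1454184_a_at, 0.46, and Traf6 1421376_at, 0.42). Ikbkb 1426207_at was -0.04, and it was 0.088 with the averaging, 0.062 with the block, 0.088 with both, and from -0.31 to 0.17 with 1 array left out. Traf6 1446940_at was 0.0032, and it was -0.040 after a repeated quantile normalization, -0.048 with arrays centred on the median, and from -0.13 to 0.13 with 1 array left out. With the block it was -0.0082 after the quantile normalization and -0.017 after the centring. With the block and 1 array left out, Ikbkb 1426207_at ran from -0.092 to 0.27, Traf5 1448861_at from -0.043 to 0.41, Traf6 1421376_at from -0.17 to 0.49, and Traf6 1446940_at from -0.13 to 0.13. Without the block and with 1 array left out, the lowest and highest values were -0.083 and 0.23 for Birc2 1418854_at, -0.11 and 0.50 for Ikbkb 1426333_a_at, -0.31 and 1.24 for Ikbkb 1454184_a_at, -0.26 and 0.038 for Map3k14 1434364_at, -0.012 and 0.31 for Traf2 1451233_at, and -0.26 and 0.028 for Traf5 1447682_x_at. They were -0.10 and 0.21 for Traf5 1448861_at, -0.10 and 0.51 for Traf6 1421377_at, and -0.046 and 0.96 for Traf6 1421376_at. Averaging and leaving out arrays lower the number of arrays by construction, and the cause of the other changes was not tested. The block changed the call of no member other than Traf1. With 5 arrays, the width of the intervals limits what can be seen, and a change that missed the threshold is not shown to be absent.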
